A study of Danio rerio with 228 samples.

Results

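A set of 26 DNA repair genes was measured by 27 probes in pools of zebrafish embryos exposed to 9 per- and polyfluoroalkyl substances (PFAS). The probes were chosen by symbol from the 3183 on the panel: those of genes named for repair of DNA (rad, xrcc, msh, fanc, brip, bard, xpc, parp, lig, mgmt, chek, exo1, apex, mre11, polh, polq and related stems). All 27 symbols matched a zebrafish gene name. The symbol rule also took in rad21a, a cohesin subunit, and blmh, bleomycin hydrolase, which are not repair enzymes in the usual sense. The gene rad51ap1 had a pair of probes, RAD51AP1_93419 and RAD51AP1_86815. At the highest concentrations, 14 of 26 tested repair probes fell after PFOS, 11 of 26 after PFHxS, 11 of 26 after PFNA and 4 of 24 after PFDS. Of all probes, 14.3, 8.96, 16.9 and 4.36% fell in the same order, and 26.9, 21, 33.1 and 10.2% changed in either direction. After PFHxA 9 of 26 repair probes rose and 1 fell, where 10.8% of all probes rose and 9.5% fell. With extraction batch as a term, 9 of 14 calls remained for PFOS, 4 of 11 for PFHxS, 2 of 4 for PFDS and 0 of 10 for PFHxA. Against only the 4 DMSO pools extracted with the PFNA pools, 5 of 11 PFNA calls remained. The share of all probes called was not counted in these settings.

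DNA repair is divided by the kind of damage. In the repair of bases and single strands, Apex1 cuts at sites which have lost their base and Parp1 senses strand breaks. Xrcc1 serves as a scaffold and the ligase Lig1 closes the nick. Double-strand breaks are trimmed by the Mre11-Rad50 complex and Exo1 and then copied from the sister strand with the help of Rad51ap1 and Rad54l, or joined end to end after binding by Ku, of which Xrcc5 is a subunit. Mismatches left by replication are read by Msh6, bulky lesions by Xpc, and alkylated guanine is restored by Mgmt, while the kinases Chek1 and Chek2 and the clamp protein Rad9a hold the cell cycle. Many of these genes are transcribed mainly in cells that copy their DNA, and a larva at the end of the exposure holds dividing cells in tissues that still grow.

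Embryos were exposed from 4 to 120 hours after fertilization in 0.1% DMSO, each sample was a pool of 10 whole embryos, and RNA was measured by TempO-Seq, in which detector oligonucleotides are ligated on the target RNA and sequenced. The carboxylic acids PFBA (butanoic), PFHxA (hexanoic), PFOA (octanoic), PFNA (nonanoic) and PFDA (decanoic), and the sulfonic acids PFBS (butane), PFHxS (hexane), PFOS (octane) and PFDS (decane), were each given at 5 concentrations. There were 4 or 5 exposed pools in each of 45 groups, and 26 pools with DMSO alone. PFBA, PFHxA, PFBS and PFHxS were compared with 6 DMSO pools of fish from the Ottawa facility, PFOA, PFOS, PFDS and PFDA with 4 DMSO pools of mixed Ottawa and Montreal fish, and PFNA with 16 DMSO pools of Ottawa fish from its own processing batch. Of those 16, 4 were named as PFNA controls and extracted with the exposed PFNA pools. The sample names of the others begin with EM, ENV or EP, and they were extracted in other batches. Chemicals that share DMSO pools are not independent of each other, and a low or high value in those pools enters each of their comparisons. Whether the pools of a group came from separate clutches is not stated, so p-values measure the spread between these pools. In RNA from whole embryos, fewer cells of a type and less RNA per cell cannot be told apart.

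The 216 embryo libraries held 2254364 to 4466565 counts, with a median of 3217205. Levels are given as CPM, the counts of a probe relative to the library total, scaled over all embryo libraries. In the DMSO pools 3 of the 27 probes had a median over 100 CPM, 10 lay between 10 and 100 CPM and 14 lay under 10 CPM, so that the last rested on few counts. Probes differ in how well they capture their target, and levels are compared between groups of pools, not between genes. The bard1 probe, at a median of 0.543 CPM, passed the filter on low counts for no chemical. The probes of fanci and rad51c passed for PFBA, PFHxA, PFBS, PFHxS, PFNA and PFOS but not for PFOA, PFDA or PFDS, which left 26 or 24 probes tested. A probe was called when its difference from DMSO had an adjusted p under 0.05 in edgeR's quasi-likelihood test, adjusted over all probes tested in that comparison.

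Of 1140 tests of a repair probe against DMSO over the 45 exposed groups, 72 were called, 63 of them lower and 9 higher in the exposed pools. At least 1 call was made for 22 of the 27 probes. The calls of all probes were not summed over the 45 groups. The share of all probes called is given below for each group instead. Calls were most frequent at the highest concentrations of 5 chemicals. At PFOS 40 µM, 14 of 26 repair probes (53.8%) fell and 0 rose, where 26.9% of all probes were called, 14.3% lower and 12.6% higher. At PFHxS 400 µM, 11 of 26 (42.3%) fell and 0 rose, where 21% of all probes were called, 8.96% lower and 12% higher. PFNA 450 µM lowered 11 of 26 (42.3%) and raised 0, where 33.1% of all probes were called, 16.9% lower and 16.2% higher. PFDS 6 µM lowered 4 of 24 (16.7%) and raised 0, where 10.2% of all probes were called, 4.36% lower and 5.87% higher.

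PFHxA 600 µM went the other way, with 9 of 26 repair probes higher and 1 lower (38.5% in all), where 20.3% of all probes were called, 10.8% higher and 9.5% lower. The median log2 change of the tested repair probes was −0.96 after PFOS 40 µM, −0.78 after PFHxS 400 µM, −0.60 after PFDS 6 µM, −0.47 after PFNA 450 µM and 0.47 after PFHxA 600 µM. The median of all probes in the same 5 comparisons lay between −0.09 and 0.03. Of the tested repair probes, 22 of 26 had a negative log2 change after PFOS, PFHxS and PFNA and 23 of 24 after PFDS, and 19 of 26 had a positive one after PFHxA.

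**Figure D1:**
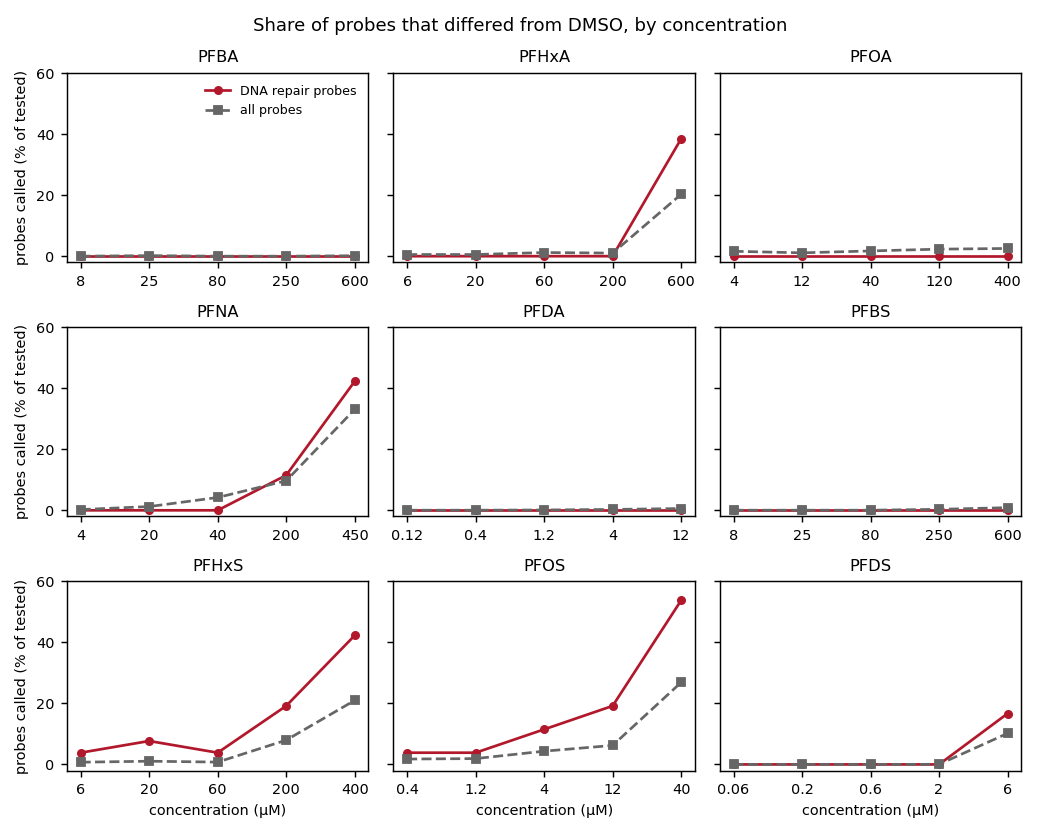
Percentage of tested probes called against DMSO (vertical axis) at each of the 5 concentrations in µM (horizontal axis, evenly spaced) for the DNA repair probes (red circles, solid line) and for all probes (grey squares, dashed line), one panel per chemical. The share of repair probes reached 53.8% at PFOS 40 µM and stood at 0 at every concentration of PFBA, PFOA, PFDA and PFBS.

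No repair probe was called at any concentration of 4 chemicals. From the lowest to the highest concentration, the share of all probes called was 0, 0.182, 0, 0 and 0.146% after PFBA and 1.61, 1.1, 1.72, 2.31 and 2.53% after PFOA. It was 0.0364, 0.0364, 0.109, 0.292 and 0.583% after PFDA and 0.0365, 0.0365, 0.0365, 0.328 and 0.875% after PFBS. At an unadjusted p under 0.05, 1 to 4 repair probes passed per concentration for PFBA, 2 to 6 for PFOA, 0 to 2 for PFDA and 2 to 5 for PFBS. Tested repair probes numbered 26 for PFBA and PFBS and 24 for PFOA and PFDA. At that unadjusted p, 6.48 to 8.19% of all probes passed after PFBA and 9.75 to 18.6% after PFOA. The range was 4.96 to 6.89% after PFDA and 5.8 to 17% after PFBS. DESeq2 called 1 repair probe at each of PFBS 8, 25, 80 and 250 µM and none for the other 3 chemicals. The median log2 change of the repair probes stayed between −0.12 and 0.12 over these 4 chemicals. At the lower concentrations of 3 others, 0 repair probes were called as well: 4 to 6 passed an unadjusted p under 0.05 after PFHxA 6 to 200 µM (all probes called, 0.546, 0.546, 1.2 and 1.02%), 1 to 7 after PFNA 4 to 40 µM (0.246, 1.23 and 4.21%) and 0 or 1 after PFDS 0.06 to 2 µM (0, 0, 0 and 0.0369%). Of all probes, 11 to 13.5%, 12.1 to 18% and 2.47 to 5.28% passed the unadjusted p in the same order. DESeq2 called 1 repair probe at PFNA 4 and 40 µM and none in the rest of these groups.

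**Figure D2:**
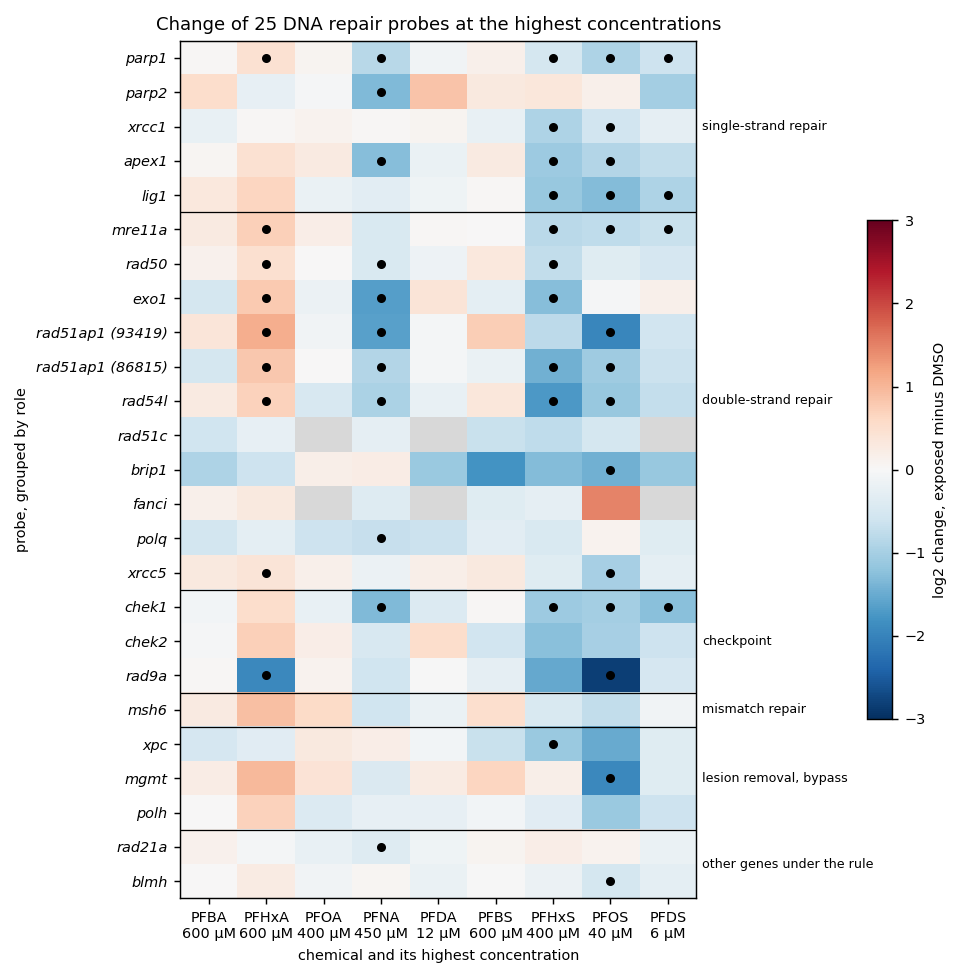
Log2 change from DMSO (colour, blue lower and red higher in exposed pools) of 25 repair probes (rows, grouped by role) at the highest concentration of each of the 9 chemicals (columns). Black dots mark calls and grey cells were not tested; blue cells hold 14 dots for PFOS, 11 for PFHxS, 11 for PFNA and 4 for PFDS, and the PFHxA column holds 8 dots in red cells and 1 in a blue cell.

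Among the single-strand break genes, parp1 was called lower at the highest concentration of PFOS, PFHxS, PFNA and PFDS, and the others in some of these. Parp1, the enzyme that senses strand breaks and marks them with poly(ADP-ribose), was at 42.5, 92.1, 35.2, 61.7 and 46.4 CPM in the 5 PFOS 40 µM pools and at 95.9, 120.2, 107.8 and 110.7 CPM in their DMSO pools. All 5 exposed pools lay under all 4 DMSO pools, with replicate 2 close to them. The log2 change of parp1 was −0.93 ± 0.217 (SE; adjusted p = 0.00167).

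PFNA 450 µM pools held parp1 at 65.9, 53.5, 61.5 and 45.4 CPM against a lowest, median and highest of 75.8, 96.2 and 134.8 CPM in 16 DMSO pools. The groups did not overlap, and the log2 change was −0.83 ± 0.142 (adjusted p = 1.45e-05). PFDS 6 µM pools, at 83.9, 69.8, 70.95 and 56.01 CPM, also lay below every DMSO pool, and parp1 fell by 0.63 on the log2 scale (SE 0.166, adjusted p = 0.0132; 0.0654 without PFDS replicate 4). At PFHxS 400 µM the pools had 52.1, 77.95, 62.4 and 89.6 CPM against 79.5, 100.9 and 120.2 CPM (lowest, median, highest of 6), so that 1 of 4 overlapped the DMSO range, and the log2 change was −0.52 ± 0.161 (adjusted p = 0.021). That call was lost without PFHxS replicate 1, PFHxS replicate 3 or DMSO replicate 5, where adjusted p reached 0.083. After PFHxA 600 µM, parp1 stood at 157.6, 156.1, 133.1 and 109.9 CPM, above every DMSO pool in 3 of 4 pools. The log2 change there was 0.46 ± 0.147 (adjusted p = 0.0259), and it passed 0.05 without PFHxA replicate 1 or 2 or DMSO replicate 1 (up to 0.0916).

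Lig1 seals nicks in replication and in base-excision repair. Its levels in the PFOS 40 µM pools were 50.3, 39.2, 43.1, 51.3 and 32.6 CPM, against 102.2, 101.8, 141.4 and 91.6 CPM in the DMSO pools. Every exposed pool lay well below every DMSO pool, with a log2 change of −1.30 ± 0.247 (adjusted p = 0.000212). In the PFDS 6 µM pools lig1 was at 50.03, 63.4, 77.5 and 40.8 CPM, again below the same 4 DMSO pools, and fell by 0.92 on the log2 scale (SE 0.232, adjusted p = 0.0102). The PFDS call was lost without PFDS replicate 4 or DMSO replicate 3 (adjusted p up to 0.0559). In the PFHxS 400 µM pools it was at 75.7, 70.1, 36.3 and 19.8 CPM against 68.1, 106.01 and 172.1 CPM (lowest, median, highest), so that 2 of 4 pools lay inside the DMSO range. The log2 change after PFHxS was −1.13 ± 0.293 (adjusted p = 0.00625). PFNA and PFHxA left lig1 uncalled.

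Apex1, the endonuclease that cuts at sites which have lost their base, fell after PFNA, PFHxS and PFOS. In the PFNA 450 µM pools it was at 9.15, 5.17, 8.48 and 5.58 CPM against 9.72, 16.7 and 26.3 CPM (lowest, median, highest of 16 DMSO pools). All 4 pools lay below the DMSO range, with a log2 change of −1.28 ± 0.234 (adjusted p = 3.81e-05). In the PFHxS 400 µM pools it was at 9.70, 8.58, 8.99 and 7.42 CPM against 11.1, 15.7 and 29.4 CPM, again with no overlap, and the log2 change was −1.09 ± 0.264 (adjusted p = 0.00378). After PFOS 40 µM, at 11.9, 15.1, 6.58, 10.4 and 6.58 CPM against 13.0, 20.3, 22.5 and 20.7 CPM, 4 of 5 pools lay below the DMSO pools. The log2 change was −0.88 ± 0.304 (adjusted p = 0.0295), a call lost without any 1 of 5 of the 9 pools.

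The scaffold xrcc1 was at 133.9, 145.2, 123.6 and 91.2 CPM in the PFHxS 400 µM pools, against 189, 231 and 301 CPM (lowest, median, highest) in DMSO. No exposed pool reached the DMSO range, and the log2 change was −0.94 ± 0.136 (adjusted p = 1.25e-05). The PFOS 40 µM pools held 140.008, 138.2, 155.01, 145.02 and 152.4 CPM against 180.1, 261, 236 and 211 CPM, all 5 below DMSO, with a log2 change of −0.57 ± 0.182 (adjusted p = 0.018; 0.0701 without DMSO replicate 2). Parp2, a second strand-break sensor, was called at PFNA 450 µM alone among the highest concentrations, with a log2 change of −1.33 ± 0.434 (adjusted p = 0.0161; 0.0918 without PFNA replicate 3), on levels of 0.353 to 2.13 CPM.

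**Figure D3:**
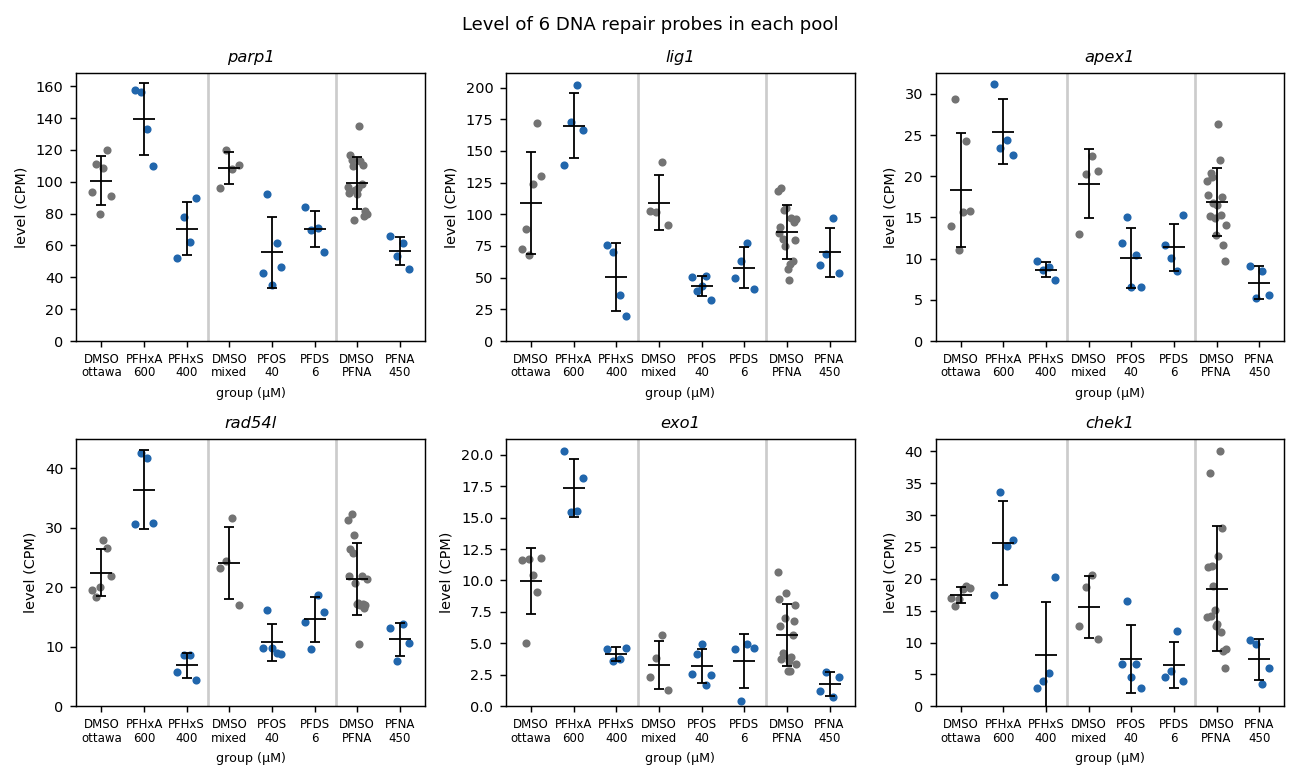
Level in CPM (vertical axis, linear from 0) of 6 repair probes in each pool (points) of the 3 DMSO groups (grey) and of the 5 exposed groups with calls (blue, µM); the dash is the mean and the bars are the SD. Parp1 lay below its DMSO pools in all 5 PFOS, 4 PFNA and 4 PFDS pools, and rad54l pools after PFHxS were at 4.396 to 8.70 CPM against 18.3 to 28.0 CPM.

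Of the homologous recombination genes, rad54l and rad51ap1 were called at the highest concentrations of PFOS, PFHxS, PFNA and PFHxA, and neither was called after PFDS. Rad54l, a motor protein that acts in strand exchange, was at 5.82, 8.58, 8.70 and 4.396 CPM in the PFHxS 400 µM pools against 18.3, 21.1 and 28.0 CPM (lowest, median, highest) in 6 DMSO pools. The groups were far apart, at a log2 change of −1.72 ± 0.218 (adjusted p = 1.9e-06), the smallest p of any repair probe in that comparison. PFOS 40 µM pools had 9.84, 16.2, 9.87, 9.02 and 8.78 CPM against 23.2, 24.5, 31.7 and 17.1 CPM, with replicate 2 near the lowest DMSO pool. The log2 change after PFOS was −1.13 ± 0.274 (adjusted p = 0.00246). In the PFNA 450 µM pools rad54l was at 13.1, 7.596, 13.8 and 10.7 CPM, and 3 of 4 lay inside the DMSO range of 10.5 to 32.3 CPM. It fell there by 0.94 on the log2 scale (SE 0.257, adjusted p = 0.00403). After PFHxA 600 µM the level was 30.6, 42.6, 41.8 and 30.8 CPM, above all 6 DMSO pools, and rad54l rose by 0.69 (SE 0.204, adjusted p = 0.0168; up to 0.0654 without PFHxA replicate 2 or 3).

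Rad51ap1 helps strands to pair in recombination. By probe RAD51AP1_93419 it was at 5.79, 7.27, 3.62, 3.32 and 1.25 CPM in the PFOS 40 µM pools and at 14.9, 17.2, 9.19 and 27.3 CPM in DMSO. The groups did not overlap, and the log2 change was −1.97 ± 0.397 (adjusted p = 0.00041). The PFNA 450 µM pools were at 3.96, 1.52, 1.77 and 1.86 CPM, all under the DMSO range of 3.98 to 11.9 CPM, replicate 1 by a narrow margin, with a log2 change of −1.63 ± 0.296 (adjusted p = 3.41e-05). PFHxA 600 µM pools, at 26.2, 21.8, 28.5 and 13.7 CPM against 6.54, 8.49 and 20.1 CPM (lowest, median, highest), were above DMSO in 3 of 4. That log2 change was 1.097 ± 0.308 (adjusted p = 0.0123; 0.0549 without PFHxA replicate 3). Probe RAD51AP1_86815 of the same gene was called in the same direction in these 3 comparisons and also after PFHxS 400 µM, at log2 changes of −1.08, −0.88, 0.80 and −1.43. Its calls were lost without any 1 of 5 of 9 pools for PFOS, 2 of 20 for PFNA, 2 of 10 for PFHxA and 2 of 10 for PFHxS, at adjusted p up to 0.0997. A water library held 241 counts of this probe, against at most 70 in any embryo library. After PFHxS 400 µM the other probe missed the threshold. That probe, RAD51AP1_93419, was also called lower at PFOS 0.4, 4 and 12 µM. Its DMSO range was 9.19 to 27.3 CPM in the mixed pools and 3.98 to 11.9 CPM in those of PFNA. Against PFOS 0.4 µM in place of DMSO, its change at 4 µM was 0.15, in the other direction. The part of a difference between sets of fish in its PFOS changes was not tested.

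Among the nucleases and their partner, exo1, which resects break ends, fell after PFNA and PFHxS and rose after PFHxA. Its levels were 1.22, 2.73, 0.707 and 2.33 CPM in the PFNA 450 µM pools against 2.79, 4.93 and 10.7 CPM (lowest, median, highest), below DMSO in 4 of 4, with a log2 change of −1.66 ± 0.441 (adjusted p = 0.00311). PFHxS 400 µM pools held 4.53, 3.58, 3.77 and 4.67 CPM against 5.00, 11.0 and 11.8 CPM, again with no overlap, and the log2 change was −1.27 ± 0.347 (adjusted p = 0.00941). PFHxA 600 µM pools were at 20.3, 15.4, 15.5 and 18.1 CPM, above all of the same 6 DMSO pools, at a log2 change of 0.80 ± 0.272 (adjusted p = 0.0384), a call lost without any 1 of 6 of the 10 pools.

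Mre11a and rad50, which form the complex that tethers and trims break ends, changed less in size. A water library held a raw rad50 count close to the embryo median of 128.5. The part of such signal in the rad50 calls was not tested. Rad50 in the PFHxS 400 µM pools was at 27.2, 33.3, 22.6 and 14.0 CPM against 29.5, 39.1 and 50.7 CPM (lowest, median, highest). Of the 4 pools, 3 lay below DMSO, with a log2 change of −0.73 ± 0.183 (adjusted p = 0.00486). Rad50 after PFNA 450 µM was at −0.45 ± 0.161 (adjusted p = 0.027), with all 4 pools inside the DMSO range, and that call was lost without PFNA replicate 1, 2 or 4 (up to 0.15). Mre11a was called lower at PFHxS 400 µM (−0.81 ± 0.275, adjusted p = 0.0356), PFOS 40 µM (−0.77 ± 0.276, adjusted p = 0.0362) and PFDS 6 µM (−0.67 ± 0.217, adjusted p = 0.0474). Each of those 3 calls of mre11a was lost without any 1 of 6 of 10, 5 of 9 and 7 of 8 pools. After PFHxA 600 µM, mre11a was at 58.7, 36.9, 40.7 and 50.7 CPM, above the DMSO range of 20.5 to 34.6 CPM. Its log2 change was 0.71 ± 0.19 (adjusted p = 0.00902; 0.0507 without PFHxA replicate 1), and that of rad50 was 0.48 ± 0.165 (adjusted p = 0.0399), lost without any 1 of 6 of 10 pools.

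Of the end-joining genes, xrcc5, the larger Ku subunit, gave the smallest p of any repair probe after PFOS 40 µM. Its pools were at 55.8, 71.4, 65.5, 51.98 and 68.3 CPM against 105.4, 142.4, 119.8 and 144.5 CPM in DMSO. The groups were well separated, with a log2 change of −1.001 ± 0.144 (adjusted p = 6.59e-06). The change of xrcc5 at the 4 lower PFOS concentrations lay between −0.46 and −0.31, with adjusted p between 0.0692 and 0.209. After PFHxA 600 µM it rose by 0.40 (SE 0.142, adjusted p = 0.0473), and this call was lost without any 1 of 8 of 10 pools. Polq, the polymerase of a second, error-prone joining route, was called lower at PFNA 450 µM (−0.69 ± 0.224, adjusted p = 0.0147; 0.0943 without PFNA replicate 1), with 3 of 4 pools inside the DMSO range. Brip1, a helicase that works with Brca1, was called lower at PFOS 40 µM alone (−1.45 ± 0.532, adjusted p = 0.0415), lost without any 1 of 6 of 9 pools, at 0.475 to 3.08 CPM.

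Chek1, the kinase that halts the cycle when replication stalls, was called lower at the highest concentration of all 4 chemicals, as was parp1 and no other repair probe. The 4 PFNA 450 µM pools held 10.4, 9.72, 3.53 and 6.05 CPM against 6.04, 14.6 and 40.0 CPM (lowest, median, highest), mostly inside the lower part of the DMSO range. The log2 change after PFNA was −1.33 ± 0.373 (adjusted p = 0.00515), kept without each pool in turn. After PFHxS 400 µM the levels were 2.91, 3.93, 5.22 and 20.3 CPM against a narrow DMSO range of 15.7 to 18.8 CPM, so that 3 pools lay far below it and replicate 4 above it. The PFHxS log2 change was −1.09 ± 0.377 (adjusted p = 0.0387).

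PFOS 40 µM pools were at 6.65, 16.5, 4.61, 6.65 and 2.82 CPM against 12.6, 18.8, 20.6 and 10.5 CPM, with replicate 2 inside the DMSO range and the others below it. The chek1 log2 change was −1.02 ± 0.361 (adjusted p = 0.0333). PFDS 6 µM pools were at 4.55, 5.62, 11.8 and 3.98 CPM, 3 of them below the same DMSO pools, with a log2 change of −1.26 ± 0.374 (adjusted p = 0.0281). Without any 1 of 7 of 10 pools (PFHxS), 6 of 9 (PFOS) or 5 of 8 (PFDS), chek1 was no longer called, at adjusted p up to 0.114. Chek2, the kinase that acts on double-strand breaks, was never called against DMSO and had log2 changes from −1.38 to 0.89 over the 45 groups.

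Msh6, which reads mismatched bases, had a log2 change of 0.91 ± 0.457 at PFHxA 600 µM (adjusted p = 0.164). It was called once, at PFNA 200 µM, where it fell by 1.42 (SE 0.46, adjusted p = 0.0439; lost without any 1 of 10 of 20 pools).

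The probes taken in by symbol alone each fell once. Rad21a, part of the ring that holds sister chromatids together, was at 423, 436, 499.5 and 446 CPM in the PFNA 450 µM pools against 464, 582 and 765 CPM (lowest, median, highest), with 3 of 4 pools below DMSO. It fell by 0.39 on the log2 scale (SE 0.102, adjusted p = 0.00273). Blmh was at 167, 140.5, 169.5, 162.8 and 142.6 CPM in the PFOS 40 µM pools against 191.9, 232.3, 192.8 and 300.2 CPM, all 5 below DMSO, and fell by 0.52 (SE 0.156, adjusted p = 0.0129; 0.116 without DMSO replicate 4). Polh, a polymerase that copies past ultraviolet damage, rad51c, of homologous recombination, and fanci, of the crosslink repair pathway, were tested and never called against DMSO. Their log2 changes ran from −1.11 to 0.68, −0.99 to 0.76 and −1.16 to 1.59.

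The calls were compared with what the pools share besides exposure. Without each pool in turn, 7 of 14 calls were kept throughout after PFOS 40 µM, 6 of 11 after PFHxS 400 µM, 7 of 11 after PFNA 450 µM, 0 of 4 after PFDS 6 µM and 1 of 10 after PFHxA 600 µM. Within plate 1 and plate 2 taken alone, all 14, 11, 4 and 10 called probes of PFOS, PFHxS, PFDS and PFHxA kept their direction. These probes had been called on the same pools, so a kept direction within a plate is not independent support. On the fewer pools of a single plate, the number of repair probes called within plate 1 and plate 2 was 6 and 5 for PFOS, 7 and 9 for PFHxS, 0 and 2 for PFDS and 1 and 3 for PFHxA. Against the lowest concentration of the same chemical in place of DMSO, the counts were 8 for PFOS 40 µM and 8 for PFHxS 400 µM. They were 4 for PFNA 450 µM, 8 for PFDS 6 µM and 1 for PFHxA 600 µM. In that order, 7 of 14, 6 of 11, 4 of 11, 4 of 4 and 1 of 10 calls made against DMSO were kept. Scaled by total counts alone, PFOS 40 µM had 8 and PFDS 6 µM had 1. The share of all probes called was not counted in these settings, nor in the extraction batch settings below. These counts therefore cannot be set against the whole panel.

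RNA was extracted in batches that the exposed and DMSO pools shared only in part. With extraction batch as a term, 9 of 14 calls remained after PFOS (among them xrcc5, lig1, parp1 and rad54l), 4 of 11 after PFHxS (chek1, rad54l, xpc and xrcc1), 2 of 4 after PFDS (chek1 and lig1) and 0 of 10 after PFHxA. The direction was kept by all called probes of PFOS, PFHxS and PFDS and by 9 of 10 of PFHxA. The called probes were chosen on these same exposed pools, so a kept direction is not independent support. All PFNA 450 µM pools were extracted in batch 14, with 4 of the 16 DMSO pools. Against those 4 alone, apex1, exo1, parp1, rad50 and rad51ap1 (RAD51AP1_93419) were called, 5 of 11, and all 11 kept their direction. The 11 had likewise been called on the same exposed pools. Only 1 PFHxA 600 µM pool shared an extraction batch with a DMSO pool, so that extraction and exposure cannot be told apart there.

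Below the highest concentration, calls came from few probes. PFHxS 200 µM lowered 5 repair probes (19.2%), where 3.77% of all probes fell and 7.97% were called: xpc, mgmt, parp1, exo1 and rad51ap1 (RAD51AP1_93419). The calls of exo1 and rad51ap1 were lost without any 1 of 3 and 6 of 10 pools (adjusted p up to 0.0919 and 0.15), and the count was 2 with extraction batch as a term and 0 against PFHxS 6 µM. Parp1 pools there were at 69.4, 61.2, 78.1 and 58.6 CPM, all below DMSO, and fell by 0.60 on the log2 scale (SE 0.162, adjusted p = 0.0196; up to 0.0916 without PFHxS replicate 2 or 4). PFOS 12 µM lowered 5 (19.2%), where 3.77% of all probes fell and 6.23% were called: rad51ap1 (RAD51AP1_93419), rad54l, rad9a, xpc and lig1. The lig1 call was lost without any 1 of 8 of 9 pools (adjusted p up to 0.151), and the count was 1 with extraction batch as a term and 0 against PFOS 0.4 µM. Rad54l pools there held 5.57, 6.41, 9.49, 15.2 and 13.9 CPM, all below DMSO, at a log2 change of −1.23 ± 0.274 (adjusted p = 0.00725), as large as at 40 µM (−1.13).

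PFOS 4 µM lowered 3 (11.5%; rad51ap1, rad9a and xpc), where 2.9% of all probes fell and 4.35% were called. That of rad51ap1 was lost without any 1 of 7 of 9 pools (adjusted p up to 0.238), and the count was 1 with extraction batch as a term and 0 against PFOS 0.4 µM. PFNA 200 µM lowered 3 (11.5%; apex1, msh6 and polq), close to the 9.69% of all probes called, of which 4.04% fell. The polq call was lost without any 1 of 11 of 20 pools (adjusted p up to 0.218), and the count was 0 against the DMSO pools of extraction batch 14 and 0 against PFNA 4 µM. Apex1 at PFNA 200 µM was at 9.54, 5.70, 8.21 and 13.8 CPM, 3 of 4 below DMSO, and fell by 0.88 (SE 0.221, adjusted p = 0.00774; 0.0898 without PFNA replicate 2).

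By concentration, the mean level of lig1 after PFOS was 93.6, 103.9, 82.3, 63.1 and 43.3 CPM at 0.4, 1.2, 4, 12 and 40 µM, against 109.3 CPM in DMSO. The SD of these means lay between 7.82 and 25.7 CPM, so that neighbouring concentrations overlapped. For apex1 after PFNA the mean was 14.9, 12.3, 12.7, 9.30 and 7.09 CPM at 4, 20, 40, 200 and 450 µM against 16.9 CPM in DMSO. By contrast rad51ap1 (RAD51AP1_93419) had means between 5.86 and 7.64 CPM at the first 4 PFNA concentrations and was at 2.28 CPM at 450 µM. Rad54l after PFHxS had means of 19.4 to 22.3 CPM up to 60 µM, 14.8 CPM at 200 µM and 6.88 CPM at 400 µM.

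Xpc, rad9a and mgmt differed from DMSO at low concentrations too, as did rad51ap1 (RAD51AP1_93419) after PFOS. The ranges of all of these differed between groups of unexposed pools. Xpc, which recognises bulky lesions and opens nucleotide excision repair, was at 14.9 to 27.6 CPM in the mixed DMSO pools, 6.34 to 15.8 CPM in the Ottawa DMSO pools and 0.936 to 12.5 CPM in the PFNA DMSO pools. At PFHxS 6, 20, 60 and 200 µM its 16 pools all lay between 0.894 and 4.71 CPM, below every Ottawa DMSO pool. The log2 change was −2.02 ± 0.371, −2.09 ± 0.371, −2.36 ± 0.385 and −1.95 ± 0.367 in that order, with adjusted p between 0.0011 and 0.00432, and the share of all probes called was 0.731%, 1.06%, 0.768% and 7.97%, of which 0.402%, 0.585%, 0.475% and 3.77% fell. At 400 µM xpc stood nearer to DMSO, at 4.85, 7.51, 5.51 and 3.85 CPM (−1.12 ± 0.344, adjusted p = 0.02; 0.0691 without PFHxS replicate 4). Against PFHxS 6 µM in place of DMSO, the change of xpc at 400 µM was 0.89, in the other direction.

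After PFOS, xpc was low at every concentration, with medians of 2.86, 8.75, 2.74, 2.64 and 5.70 CPM from 0.4 to 40 µM against 19.1 CPM in DMSO. It was called at 4 µM (−2.52 ± 0.648, adjusted p = 0.0206; lost without PFOS replicate 4 or DMSO replicate 2 or 4, up to 0.0667) and at 12 µM (−2.19 ± 0.631, adjusted p = 0.036; lost without any 1 of 7 of 9 pools). PFOA, PFDA and PFDS, compared with the same DMSO pools, kept xpc between 8.40 and 37.7 CPM.

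Rad9a, part of the clamp that activates the checkpoint kinases, had a similar layout. The mixed DMSO pools held 28.3, 20.3, 11.7 and 36.1 CPM, and the PFOS 40 µM pools 1.74, 1.12, 0.658, 6.41 and 6.27 CPM. All 5 lay below DMSO, with a log2 change of −2.83 ± 0.538 (adjusted p = 0.000224). Rad9a was also called at PFOS 1.2 µM (−1.90; lost without any 1 of 7 of 9 pools, adjusted p up to 0.21), 4 µM (−2.20; 0.0723 without DMSO replicate 4) and 12 µM (−1.81; lost without any 1 of 7 of 9 pools, up to 0.127). At 0.4 µM its pools ran from 1.79 to 15.1 CPM. The share of all probes called at PFOS 0.4 and 1.2 µM was 1.77% and 1.92%, with 1.23% lower in each, beside 1 repair probe at each: rad51ap1 (RAD51AP1_93419; lost without any 1 of 7 of 9 pools, adjusted p up to 0.222) and rad9a. The Ottawa DMSO pools spread from 0.804 to 20.0 CPM, and all 20 PFHxA pools lay between 0.579 and 3.86 CPM. The fall of rad9a called at PFHxA 600 µM (−1.92 ± 0.634, adjusted p = 0.0321) was lost without any 1 of 6 of 10 pools and was 1.80 in the other direction with extraction batch as a term.

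Mgmt, the enzyme that takes alkyl groups off guanine, was at 34.2, 39.4, 37.1 and 68.96 CPM in the mixed DMSO pools and at 22.9, 14.8, 10.5, 4.98 and 4.70 CPM in the PFOS 40 µM pools. The groups did not overlap, and the log2 change was −1.93 ± 0.409 (adjusted p = 0.000705). The PFNA DMSO pools held 0 to 5.83 CPM, and the Ottawa DMSO pools ran from 1.49 to 34.2 CPM. PFHxS 6 to 200 µM pools held 0.819 to 3.77 CPM and PFHxS 400 µM pools 8.70 to 19.7 CPM. PFBS 8 to 250 µM pools held 0.349 to 3.60 CPM and PFBS 600 µM pools 13.3 to 22.9 CPM, whereas all PFBA and PFHxA pools lay between 6.30 and 39.5 CPM. The falls called at PFHxS 20 µM (−2.80 ± 0.678, adjusted p = 0.0326, lost without any 1 of 7 of 10 pools) and 200 µM (−2.88 ± 0.685, adjusted p = 0.00831) left 2 and 3 of the 4 exposed pools inside the DMSO range. The ranges of xpc, rad9a and mgmt thus differed between the 3 groups of unexposed pools, which was not tested, and whether exposed and DMSO pools came from the same clutches is not stated. For these genes a difference between sets of fish and a difference by exposure cannot be told apart.

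**Figure D4:**
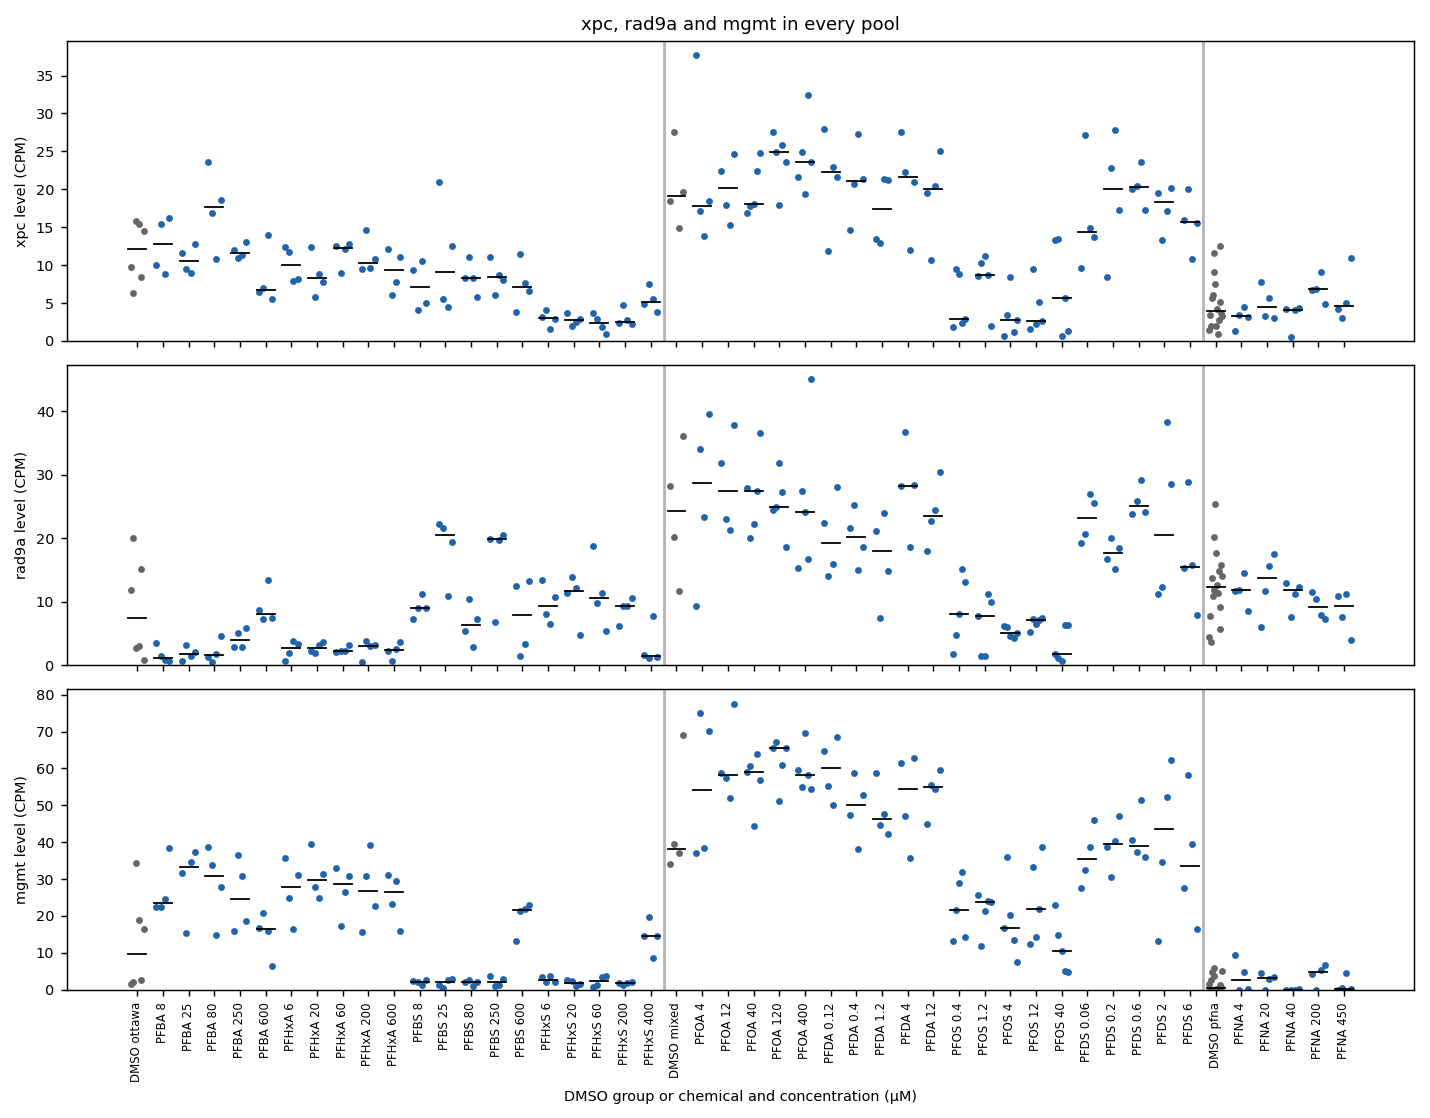
Level in CPM (vertical axes, linear from 0) of xpc, rad9a and mgmt in every pool (points; grey DMSO, blue exposed) with the median of each group (line), in the order of DMSO groups and of chemicals by rising concentration in µM; vertical lines separate the 3 sets that share DMSO pools. Xpc lay at 0.894 to 4.71 CPM in PFHxS 6 to 200 µM, and mgmt at 0 to 5.83 CPM in the PFNA DMSO pools and 34.2 to 68.96 CPM in the mixed ones.

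Chemicals were compared directly at the same concentration in 8 pairs, with p adjusted over all probes and pairs together. PFOS and PFOA, which carry a sulfonic and a carboxylic acid group, differed most. At 40 µM, 15 of 26 repair probes were lower and 1 higher after PFOS, where 29.1% of all probes differed. The median log2 difference of the repair probes was −0.95, against 0.02 for all probes. Xrcc5 had a mean of 62.6 CPM after PFOS and 142.1 CPM after PFOA, a log2 difference of −1.18 with a 95% interval of −1.41 to −0.94 (adjusted p = 3.61e-10). Parp1 was at 55.6 against 124.4 CPM, a difference of −1.15 (−1.50 to −0.80; adjusted p = 4.2e-06). Polq was the probe that was higher, at 11.6 against 5.82 CPM (1.00; 0.39 to 1.61; adjusted p = 0.0262). Chek1 missed the threshold, with a difference of −0.71 (−1.38 to −0.04; adjusted p = 0.198).

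PFHxS and PFHxA differ in the same way in their acid group. At 200 µM, 7 of 26 repair probes were lower after PFHxS and 0 higher, where 14.5% of all probes differed: chek1, exo1, mgmt, parp1, xpc and both probes of rad51ap1. At 6 µM the median of xpc was already 3.01 CPM after PFHxS and 9.985 CPM after PFHxA, and that of mgmt 2.73 and 27.96 CPM. For these genes a difference between sets of fish and a difference by exposure cannot be told apart. Parp1 at 200 µM was at 66.8 CPM after PFHxS and 124.2 CPM after PFHxA (−0.89; −1.23 to −0.56; adjusted p = 0.000198). Chek1 was at 8.51 against 23.7 CPM (−1.48; −2.31 to −0.65; adjusted p = 0.0146). Xrcc5 missed the threshold, with an interval of −0.21 to 0.36. At 600 µM the acids with the shorter butane chain, PFBS and PFBA, differed in 0 of 26 repair probes by edgeR, where 0.641% of all probes differed. None passed an unadjusted p under 0.05 either, and the count was 0 with DESeq2's size factors. The interval was −0.22 to 0.43 for parp1 and −0.83 to 0.29 for lig1, while for brip1 it ran from −2.17 to 0.42, so that large differences were not resolved for weakly measured probes.

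**Figure D5:**
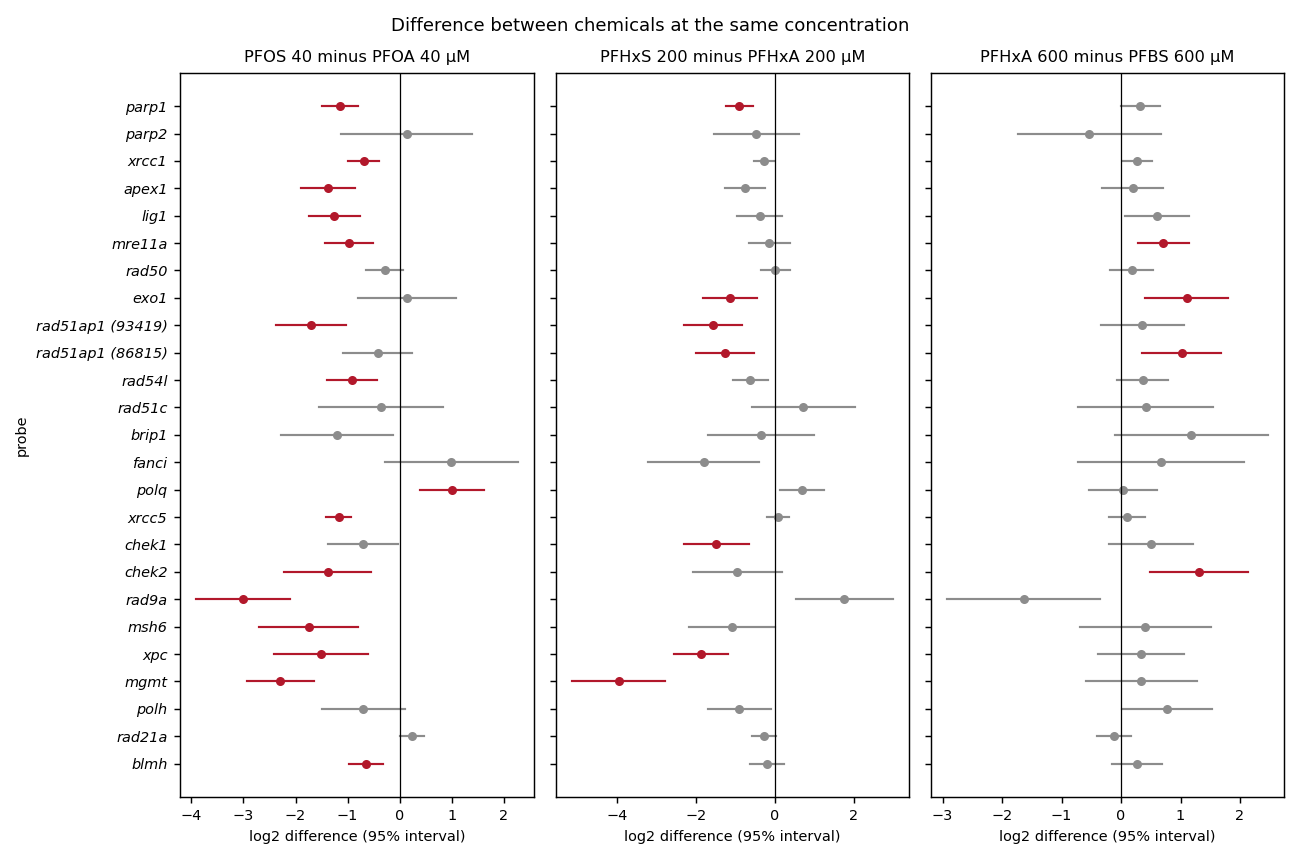
Log2 difference (points) with its 95% interval (lines) of 25 repair probes between PFOS and PFOA at 40 µM, PFHxS and PFHxA at 200 µM and PFHxA and PFBS at 600 µM; red marks an adjusted p under 0.05 over all probes and 8 pairs. The first panel holds 14 red points left of 0 and 1 right of it, the second 7 left, and the third 4 right.

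PFHxA at 600 µM differed from the shorter-chain acids in few repair probes. Against PFBA, exo1 (1.32; 0.68 to 1.957; adjusted p = 0.00459) and rad51ap1 (RAD51AP1_86815, 1.34; 0.64 to 2.04; adjusted p = 0.00834) were higher and rad9a was lower, where 11.2% of all probes differed. Against PFBS, chek2, exo1, mre11a and RAD51AP1_86815 were higher and 0 lower, where 10.1% of all probes differed, and with any 1 of the 8 pools left out that count was 1 or 2. PFOS and PFDA at 12 µM differed in 9 probes, 8 lower and rad21a higher after PFOS, where 12.6% of all probes differed. The 8 lower were xpc, rad9a, mgmt, chek2, xrcc1, xrcc5, rad54l and rad51ap1 (RAD51AP1_93419), and with extraction batch as a term 1 probe differed. Parp1 there missed the threshold, with an interval of −0.69 to 0.05. The remaining pairs, PFNA with PFHxS at 200 µM and PFOA with PFHxS at 400 µM, do not share DMSO pools and were compared as changes from their own, with 3 of 26 repair probes higher in PFNA (4.12% of all probes) and 8 of 26 higher in PFOA (10.3% of all probes). For xpc, rad9a and mgmt in any of the 8 pairs, a difference between sets of fish and one by exposure cannot be told apart.

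Other lists of related pathways, chosen with earlier results known, were described beside these genes. Of 26 further repair genes tested, 10 fell and 2 rose at PFOS 40 µM, 14 fell at PFHxS 400 µM, 12 at PFNA 450 µM and 9 at PFDS 6 µM, with 0 rising in the last 3, while 8 rose and 1 fell at PFHxA 600 µM. H2ax, the histone marked at breaks, changed by −1.31, −1.49, −1.17, −0.99 and 0.84 in that order. Pcna, the sliding clamp, fell by 1.31 after PFHxS and by 1.12 after PFDS. Rfc2 and rpa3, of the clamp loader and the single-strand binding complex, fell by 1.47 and 1.52 after PFOS, and rpa2 rose by 0.82 after PFHxA. The gene that fell after PFHxA was ddb2, a sensor of ultraviolet damage (−0.58).

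Genes of DNA replication fell in 17 of 22 probes at PFOS 40 µM, 13 of 22 at PFHxS 400 µM, 13 of 24 at PFNA 450 µM and 11 of 22 at PFDS 6 µM, and rose in 12 of 23 at PFHxA 600 µM. Mcm2, of the replicative helicase, changed by −1.36 after PFOS, −1.01 after PFNA, −1.06 after PFDS and 0.71 after PFHxA, and mcm3 of the same helicase by −1.23 after PFHxS. Genes of mitosis fell in 17 of 28, 18 of 28, 21 of 29 and 13 of 27 probes and rose in 11 of 30, in the same order. The list medians of replication were −1.18, −1.02, −0.86, −0.84 and 0.65 and those of mitosis −0.75, −0.99, −1.19, −0.87 and 0.57.

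A list of p53 targets and other damage response genes was described too. At PFNA 450 µM, 14 of 23 rose and 0 fell, 10 of 22 rose and 0 fell at PFHxS 400 µM, and 7 of 24 rose and 0 fell at PFDS 6 µM. Sesn2, a stress sensor, rose by 2.14 on the log2 scale after PFNA, and mcl1a, which protects cells from apoptosis, rose by 1.25, 0.92 and 0.94 in these. At PFOS 40 µM 4 rose and 4 fell, with mdm2, the ubiquitin ligase that limits p53, at −5.72 ± 0.784 (adjusted p = 3.76e-06). Falls in this list were called at the lower PFOS concentrations too, 2, 3, 3 and 3 of 24 at 0.4, 1.2, 4 and 12 µM, with 0 rising. The part of a difference between sets of fish in the PFOS falls of this list, that of mdm2 included, was not tested. At PFHxA 600 µM 3 rose and 3 fell.

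At the highest concentrations of the 5 chemicals with repair calls, markers of dividing cells moved in the same direction as the repair genes. After PFOA 400 µM the median log2 change was −0.40 for these markers and 0.05 for the repair probes, with 0 called in either. The summed level of 10 such markers was 499 to 775 CPM in the Ottawa DMSO pools, 399 to 739 CPM in the mixed ones and 534.5 to 1104 CPM in those of PFNA. It was 245 to 449.9 CPM after PFOS 40 µM (6 of 10 markers called lower), 235 to 386 CPM after PFHxS 400 µM (8 lower), 244 to 371 CPM after PFNA 450 µM (9 lower) and 232 to 379 CPM after PFDS 6 µM (5 lower). After PFHxA 600 µM it was 720 to 964 CPM, with 5 of 10 called higher, and 0 of the 10 markers was at 0 in any of these pools. Both retina markers, opn1lw1 and opn1lw2, fell after PFOS, PFHxS, PFNA and PFOA 400 µM. After PFOA 400 µM 1 of 5 leukocyte markers also fell and 1 of 2 tested liver markers rose. After PFDA 12 µM 1 of 2 muscle markers rose. Of 2 muscle markers, tcap rose after PFOS (2.5), PFHxS (4.26), PFDS (3.36) and PFNA (1.64), and tnnt3b fell after PFHxS (−0.54). The neuron marker snap25a rose after PFHxS (0.53), and the intestine marker alpi.2 (−0.97) and the cartilage marker col2a1a (−1.17) fell after PFNA. The liver marker fabp10a rose after PFOS (0.87), PFHxS (0.50) and PFNA (0.58), and apoa2, another liver marker, fell after PFNA (−0.81) and rose after PFHxA (0.78). Of 5 leukocyte markers, mpeg1.1 (1.18) and mpx (0.67) rose after PFHxA and lyz (−0.67) fell after PFNA. RNA yield was 176.8 ± 38.2 ng/µl after PFNA 450 µM and 250.1 ± 51.1 ng/µl in its DMSO pools (SD, n = 4 and 16), and the RNA integrity number was 9.38 ± 0.206 against 9.69 ± 0.167. Yield was 225.2 ± 76.5 ng/µl after PFHxS 400 µM and 254.5 ± 40.2 after PFHxA 600 µM, against 286.7 ± 13.4 in the Ottawa DMSO pools. It was 210.2 ± 60.8 ng/µl after PFOS 40 µM and 267 ± 47.9 after PFDS 6 µM, against 251.8 ± 82.6 in the mixed ones. The part of dividing cells, of the other cell types, of yield and of integrity in the repair results was not tested.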

How the data were processed

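TempO-Seq counts of 3183 probes in 228 libraries were taken as deposited. The authors trimmed and aligned reads with tools that the submitters' processing notes name as fastp 0.23.2, STAR 2.7.10b and R 4.4.1, and the deposited values are raw counts per probe. Total counts set the precision, and probes under 10 CPM rest on few counts. The members and all gene lists were chosen with earlier results of these data known.

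For each chemical, its 5 concentrations and its DMSO pools were fitted together in edgeR 4.0.16 (R 4.3.3, limma 3.58.1) with filterByExpr, TMM scaling and the quasi-likelihood test. P-values were adjusted by the Benjamini-Hochberg method over all probes of a contrast, with a threshold of 0.05, and SE is the log2 change divided by the root of F. CPM were scaled by TMM over all 216 embryo libraries. For the 8 pairs, p was adjusted over probes and pairs together, and intervals are 1.96 SE. The scripts were tested on simulated data. The values of 1 member are not reported here, though it enters all counts and medians; the figures by probe leave it out.

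The labels do not name the DMSO pools of PFDA (PFDS is listed in 2 places), and PFDA was taken to share those of PFDS. Left out of comparisons were 2 DMSO pools the labels exclude, 8 reference RNA libraries and 4 water libraries. Genes were described in full if among the 5 smallest p in a direction at the highest concentration with a call, called in opposite directions, or among the 3 called most often; the remaining members are given more briefly, and of other lists the 3 smallest p or the few members that moved against the list. Alternatives were DESeq2 1.42.0 and its size factors, total counts, no filter, a plate or extraction term, a replicate block, other reference groups, leaving out each pool and, added after seeing the data, each plate alone.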

Additional observations from a re-analysis of the deposited data

Results flagged for a closer look

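In 79 sets of values (a called probe in a group of 4 to 10 pools), 5 held a pool that stood apart from the rest. Chance flags about 1 in 20 such sets, so the number is near what chance gives. Chek1 was at 20.3 CPM in PFHxS 400 µM replicate 4 against 2.91 to 5.22 CPM in the other pools, and at 16.5 CPM in PFOS 40 µM replicate 2 against 2.82 to 6.65 CPM. Rad54l was at 16.2 CPM in the same PFOS pool against 8.78 to 9.87 CPM. Rad51ap1 (RAD51AP1_93419) was at 3.96 CPM in PFNA 450 µM replicate 1 against 1.52 to 1.86 CPM. Mgmt was at 68.96 CPM in mixed DMSO replicate 4 against 34.2 to 39.4 CPM.

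Changes from DMSO differed between chemicals with separate DMSO pools. The log2 change after PFNA 200 µM exceeded that after PFHxS 200 µM by 4.24 for mgmt (adjusted p = 0.0148), 2.41 for xpc (0.00568) and 0.62 for xrcc1 (0.00722), by edgeR. Mgmt lay at 0 to 5.83 CPM in the PFNA DMSO pools and 0 to 6.73 CPM after PFNA 200 µM. It lay at 1.255 to 1.945 CPM after PFHxS 200 µM, so its difference rests on few counts. For mgmt, and for xpc in both pairs of this paragraph, a difference between sets of fish and one by exposure cannot be told apart. The change after PFOA 400 µM exceeded that after PFHxS 400 µM by 1.06 for xrcc1 (adjusted p = 3.61e-05), 1.25 for rad54l (0.00426), 1.38 for apex1 (0.00483), 1.43 for xpc (0.00966), 0.63 for parp1 (0.031), 0.76 for rad50 (0.0338), 1.02 for mre11a (0.0418) and 0.54 for xrcc5 (0.0452).

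Libraries outside the comparisons also held signal. Among the water libraries the highest level was 743 CPM for rad50, against at most 52.2 CPM in DMSO, and 1190 CPM for rad51ap1 (RAD51AP1_86815), against 14.6 CPM. These are shares of small totals, which ran from 165618 to 202586 counts. In raw counts, the highest rad50 value in a water library was close to the embryo median of 128.5. That of RAD51AP1_86815 was above every embryo library. In the second reference RNA the lowest levels were 32.4 CPM for apex1, 260.1 for parp1, 19.8 for polh, 76.2 for rad50 and 359 for xrcc1, above DMSO highs of 31.5, 161.3, 11.9, 52.2 and 311 CPM. The 2 excluded DMSO pools had at least 157 CPM of xrcc5, against a DMSO high of 152 CPM.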

How the results depend on the processing

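Counts of repair probes called moved by over 1.5 times as follows, and the cause was not tested. The share of all probes called was not counted in these settings, so the counts cannot be set against the whole panel. With the Ottawa DMSO pools as reference, exposed pools of mixed fish also differ from the reference in origin. With the Ottawa DMSO pools as reference, PFDA 0.12, 0.4, 1.2, 4 and 12 µM had 6, 5, 4, 6 and 9, PFDS 0.06, 0.2, 0.6, 2 and 6 µM had 2, 2, 6, 3 and 8, PFOA 4, 12, 40, 120 and 400 µM had 10, 11, 10, 10 and 10, and PFOS 1.2 and 4 µM had 0. By DESeq2, PFBS 8, 25, 80 and 250 µM and PFNA 4 and 40 µM had 1 each and PFHxS 6 and 60 µM had 2. Against DMSO pools of extraction batch 14 alone, PFNA 200 and 450 µM had 0 and 5. With extraction batch as a term, PFBS 8 and 25 µM had 1, PFDS 6 µM 2, PFHxA 600 µM 0, PFHxS 6, 60, 200 and 400 µM 2, 2, 2 and 4, PFOS 0.4, 4, 12 and 40 µM 0, 1, 1 and 9, PFHxA against PFBS 2 and PFOS against PFDA 1. Against the lowest concentration, PFBS 600 µM had 1, PFDS 6 µM 8, PFHxA 600 µM 1, PFHxS 20, 60 and 200 µM 0, PFNA 200 and 450 µM 0 and 4, and PFOS 1.2, 4, 12 and 40 µM 0, 0, 0 and 8. Total counts gave 1 for PFDS 6 µM and 0, 0, 2 and 8 for PFOS 0.4, 1.2, 12 and 40 µM, and no low-count filter gave 0 for PFOS 1.2 µM. Plate 1 alone gave 0 for PFDS 6 µM, 1 for PFHxA 600 µM, 7 for PFHxS 400 µM and 6 for PFOS 40 µM, plate 2 alone gave 1 for PFBA 600 µM, 2 for PFDS, 3 for PFHxA and 5 for PFOS, and a plate term gave 1 for PFHxS 20 µM.

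Within a chemical, same-numbered pools of different groups had median correlations of 0.00943 to 0.116, against −0.0309 to −0.000926 for other numbers. The largest was for PFOS, at 0.116 against −0.0309, with 39 of 70 pairs over 0.1. Exposed PFOS pools of the same number shared an extraction batch. The replicate block gave 1 for PFHxS 20 µM, 2 for PFHxS 200 µM, 1, 2, 4 and 7 for PFNA 4, 20, 40 and 200 µM, 2 for PFOS 0.4 and 1.2 µM and 4 for PFOA against PFHxS at 400 µM.

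Leaving out 1 pool at a time, counts ran from 0 to 1 for PFBS 8, 25, 80 and 250 µM, PFNA 4 and 40 µM, PFOA 120 and 400 µM and PFOS 0.4 and 1.2 µM, 0 to 5 for PFDS 6 µM, 4 to 10 for PFHxA 600 µM, 1 to 2 for PFHxS 6, 20 and 60 µM, 2 to 5 for PFHxS 200 µM, 0 to 4 for PFNA 200 µM, 0 to 3, 2 to 6 and 9 to 16 for PFOS 4, 12 and 40 µM, 1 to 2 for PFHxA against PFBS and 4 to 8 for PFOA against PFHxS. Direction changed for rad9a at PFHxA 600 µM with the extraction term (1.80) and, against the lowest concentration, for polq at PFNA 200 µM (0.20) and 450 µM (0.18), rad51ap1 (RAD51AP1_93419) at PFOS 4 µM (0.15) and xpc at PFHxS 200 µM (0.062) and 400 µM (0.89). The 14 probes with a median under 10 CPM rest on few counts, which limits the precision of their changes.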
